A study of Mus musculus with 2 samples.

Results

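The core clock loop is the set of genes whose products keep a daily rhythm in nearly every mammalian cell. CLOCK, or its paralog NPAS2, pairs with BMAL1, the product of Arntl, and the pair binds E-box sequences and activates the Period genes (Per1, Per2 and Per3) and the Cryptochrome genes (Cry1 and Cry2), whose proteins return to the nucleus and inhibit the pair. The casein kinases CK1δ and CK1ε (Csnk1d and Csnk1e) phosphorylate the Period proteins and set the pace of the loop. REV-ERB and ROR receptors close a further loop on Arntl, and the PAR-domain factors such as DBP carry the rhythm to output genes. The colonic epithelium and the muscle layers of the gut both hold such clocks, in which the activating and the inhibiting arms peak at different hours of the day.

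These 10 genes, of 14669 with a ratio on the arrays, were chosen by name for their established place in the loop and with their signals on these arrays already known, so every count and ratio of the 10 describes the arrays and was not tested. RNA of whole colon came from C57BL/6 mice of 2 genotypes, Villin-Cre and EP4 cKO (Villin-Cre; EP4flox/flox), and was hybridized in 1 colour (Cy3) to 1 Agilent mouse array per genotype. Both genotypes carry the Villin-Cre transgene, which drives Cre recombinase in the intestinal epithelium, and EP4 cKO mice also carry floxed alleles of Ptger4, the gene of the prostaglandin E2 receptor EP4, so that the other cell types of the colon keep the receptor. According to the labels, 3 pools of colon went into the RNA for either array, and by the methods the mice were 8 weeks old. The hour at which the colons were taken and the light schedule are not given in the sources used here, and with 1 array per genotype an hour that differed between the arrays cannot be told apart from the genotype. For the same reason the differences could not be checked against replicates and carry no p-value.

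Signals were scaled on each array to a trimmed mean of 2500, as in the methods, and ratios are EP4 cKO over Villin-Cre on the log2 scale. Values with ± carry the error that the scanner software gives for the spot, which covers 1 hybridization and not the mice. For probes that were well above background in EP4 cKO alone, the Villin-Cre side was raised to 125 unless it was already brighter. This value was the dimmest signal that counted as well above background there, and the ratio is a lower bound where it gives a fold above 1. Otherwise the log2 ratio was set to 0, which is not a bound, and it entered the means over probes as 0. On the EP4 cKO array that dimmest signal was 57.8. Well above background were 45.4% of probes in Villin-Cre and 51.6% in EP4 cKO, and no spot was saturated. Over all genes the median log2 ratio was -0.10. The brighter probe of Ptger4 itself read 6227 on the array with the label Villin-Cre and 5661 on that labelled EP4 cKO (log2 ratio -0.14), and the dimmer one 393 and 592, which gives no check of the labels. Cells outside the epithelium keep the gene, and the sources used here do not say whether the probes lie in its floxed part. The 10 genes were matched by 21 probes with 1 spot each, of which 15 were well above background on both arrays, 5 in EP4 cKO alone and 1 on neither array.

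By their brightest probes and the trimmed mean, the 3 Period genes and Cry2 were more than 2-fold higher on the EP4 cKO array, and Clock was just over 2-fold lower. Cry1 was higher by a bound close to 2-fold, Arntl was lower within 2-fold, and Csnk1d and Csnk1e lay within 2-fold. For Npas2, known as a lower bound of 0.01, no fold could be given. Thus 4 of the 10 genes were more than 2-fold higher, beside 4.86% of all genes with a ratio, and 1 was more than 2-fold lower, beside 7.87% of all genes. Nothing is read from these shares, because the genes were chosen with the same ratios known. With scaling to the E1A control spots, added after seeing the data, 39.6% of all genes lay above 2-fold and 2.26% below it, and the log2 ratios of Arntl and Clock turned to 0.26 and 0.019. The median log2 ratio of the 10 genes was 0.50. By the brightest probes the ratios ran from -1.03 for Clock to 2.09 for Per2, with Cry1 and Npas2 known as lower bounds, and by the mean over the probes of each gene from -1.13 for Arntl to 1.26 for Per1.

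**Figure D1:**
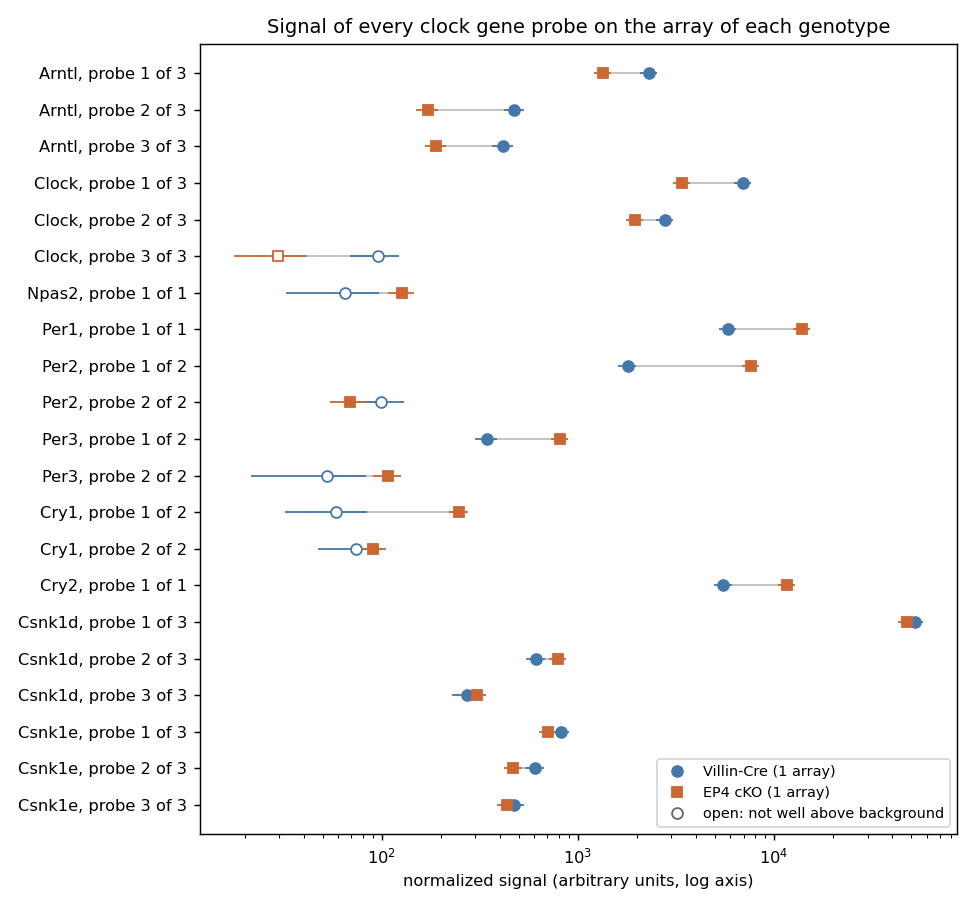
Normalized signal (log axis, arbitrary units) of all 21 probes of the 10 core clock loop genes, with Villin-Cre as circles and EP4 cKO as squares, 1 array each, the scanner software's spot error as bars and open symbols where not well above background. Squares lie to the right of circles for Per1, Cry2 and the brighter probes of Per2, Per3 and Cry1, and to the left for all probes of Arntl and Clock, and signals compare within a row only.

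Among the activators, Arntl encodes BMAL1, the partner without which neither CLOCK nor NPAS2 drives the loop. Its brightest probe had a normalized signal of 2306 ± 233 in Villin-Cre and 1338 ± 135 in EP4 cKO, a log2 ratio of -0.78 ± 0.21. The other probes read 475 and 172 (log2 ratio -1.47 ± 0.25) and 414 and 189 (-1.13 ± 0.25). With the trimmed mean all 3 probes were thus lower on the EP4 cKO array by more than the error of their spots, and the dimmer ones by more than 2-fold, whereas scaling to the E1A control spots put the brightest above 0. Of the 14669 genes, 1764 had a lower ratio than the brightest probe of Arntl.

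Clock encodes the acetyltransferase and DNA-binding partner of BMAL1. Its brightest probe went from 6917 ± 692 in Villin-Cre to 3399 ± 340 in EP4 cKO, which is 2.04-fold lower (log2 ratio -1.03 ± 0.20). A second probe read 2782 and 1960, a smaller difference (log2 ratio -0.51 ± 0.20), and a dim probe stayed below that limit on both arrays. Clock sat at the 2-fold line, and with scaling to the 75th percentile its ratio was -0.87.

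Npas2, the paralog that can stand in for CLOCK, was measured by 1 dim probe, with 64.9 in Villin-Cre (not well above background) and 127 on the EP4 cKO array. Its bound was 0.01 on the log2 scale, so no fold can be given for it.

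The Period genes encode the inhibitors whose transcripts respond to the clock and also directly to light, feeding, glucocorticoid and cAMP signals. Per2 had the largest ratio of the 8 genes measured in both genotypes by their brightest probes, with 1792 ± 181 in Villin-Cre and 7649 ± 765 in EP4 cKO, or 4.27-fold higher (log2 ratio 2.09 ± 0.21). Of the 14669 genes, 187 (1.27%) had a higher ratio. A second probe of Per2 stood near background, with 99.8 in Villin-Cre (not well above background) and 69.0 on the EP4 cKO array, and gave no fold above 1. The higher value of Per2 thus rested on 1 of its 2 probes. The mean of both was a log2 ratio of 1.05, below Per1 and Cry2, with the second probe set to 0 (-0.53 by its own signals).

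Per1 was measured by 1 probe, with 5799 ± 581 in Villin-Cre and 13896 ± 1390 in EP4 cKO (2.40-fold, log2 ratio 1.26 ± 0.20). Per3 had 343 ± 44.0 and 810 ± 82.0 (2.36-fold, log2 ratio 1.24 ± 0.24) by its brighter probe. Its dimmer probe had 52.4 (not well above background) and 108 and gave no fold above 1, and Per3 lay within 2-fold after normexp with quantile normalization (0.98) and as the mean of its probes (0.62). The brightest probes of all 3 Period genes were therefore higher on the EP4 cKO array by several times the error of their spots. Per1 and Per3 were exceeded by 3.37% and 3.50% of all genes.

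Of the Cryptochromes, the direct repressors of CLOCK and BMAL1, Cry2 had 5523 ± 553 in Villin-Cre and 11681 ± 1168 in EP4 cKO by 1 probe, 2.12-fold higher in EP4 cKO (log2 ratio 1.08 ± 0.20). Cry1 was not well above background on the Villin-Cre array with either probe. The brighter read 58.3 there and 247 on the EP4 cKO array, at least 1.97-fold higher (log2 ratio of at least 0.98), and the dimmer read 74.0 and 90.6, with no fold above 1. Both Cryptochromes were on the higher side on the EP4 cKO array, Cry1 by a bound that rested on 1 of its 2 probes.

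The kinases differed little between the arrays. Csnk1d had 52324 ± 5232 and 47549 ± 4755 (log2 ratio -0.14 ± 0.20) by its brightest probe, and 0.37 and 0.18 on the log2 scale by the others. Csnk1e had 818 ± 86.2 and 706 ± 71.7 (log2 ratio -0.21 ± 0.21), with -0.38 and -0.13 by its other probes. The probes of Csnk1d thus differed in sign, and for both genes the ratio of the brightest probe was about the error of its spots. CK1δ and CK1ε are close paralogs, and how far their probes share signal was not tested.

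**Figure D2:**
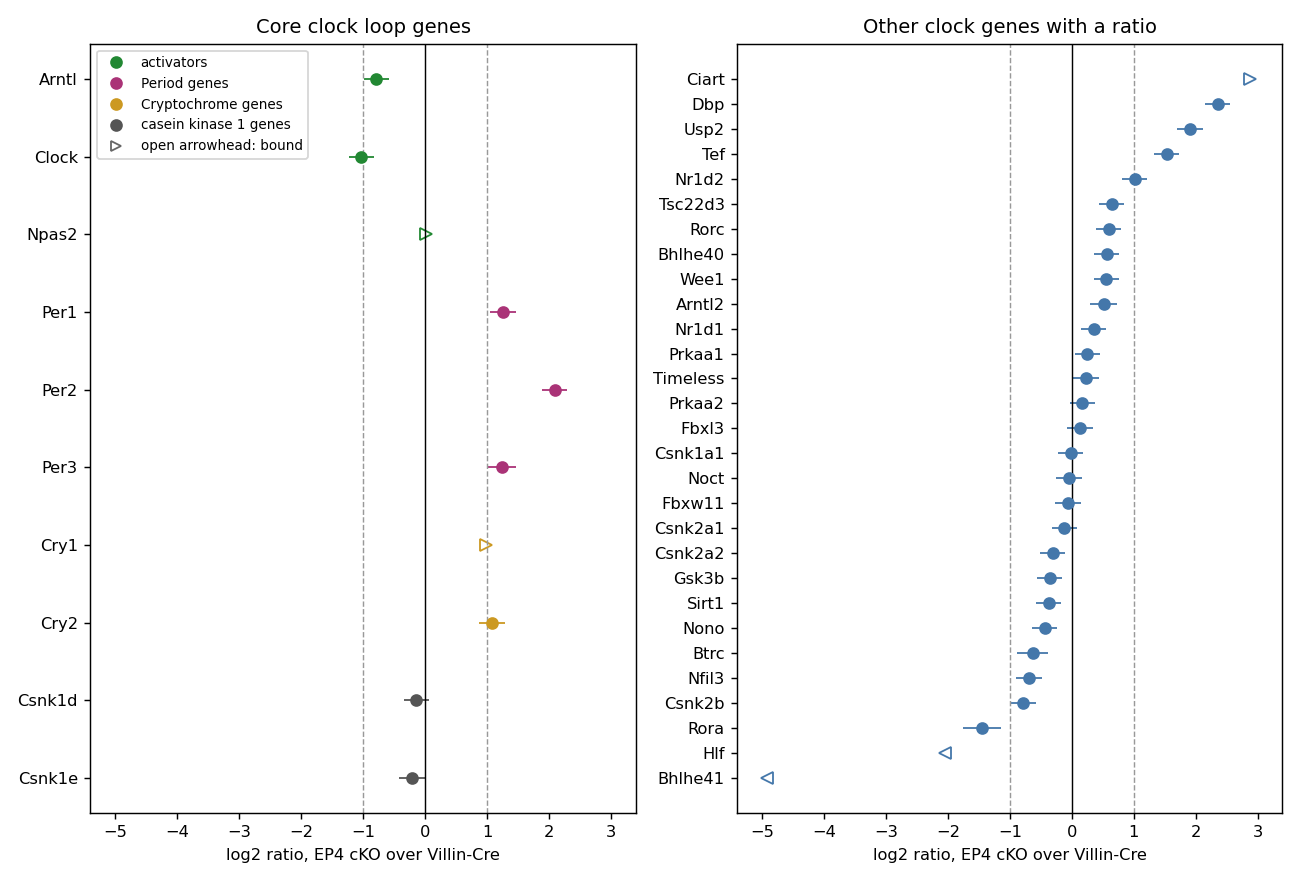
Log2 ratio (EP4 cKO over Villin-Cre) of the brightest probe of each core clock loop gene on the left, coloured by role, and of the 29 other clock genes with a ratio on the right, with the scanner software's error of the ratio as bars, open arrowheads for bounds and dashed lines at 2-fold. Period genes and Cry2 lie right of the 2-fold line and Arntl and Clock lie near the line on the left, and Dbp, Usp2 and Tef lie right of the 2-fold line.

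The Period genes can be set against Arntl and Clock within the arrays, where a constant scaling cancels. Npas2, known as a bound of 0.01 and at 0.96 by its own signals, is not part of this comparison. The log2 ratio of Per2 exceeded that of Arntl by 2.88, and that of Per1 exceeded that of Clock by 2.29. The lowest Period ratio (Per3) stood 2.02 above the higher of Arntl and Clock. The other scalings and the handling of dim probes cannot move these differences. After normexp with quantile normalization they were 2.58, 2.24 and 1.502, after loess 2.84, 2.25 and 1.96, and with the mean of probes 2.17, 2.03 and 1.38.

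**Figure D3:**
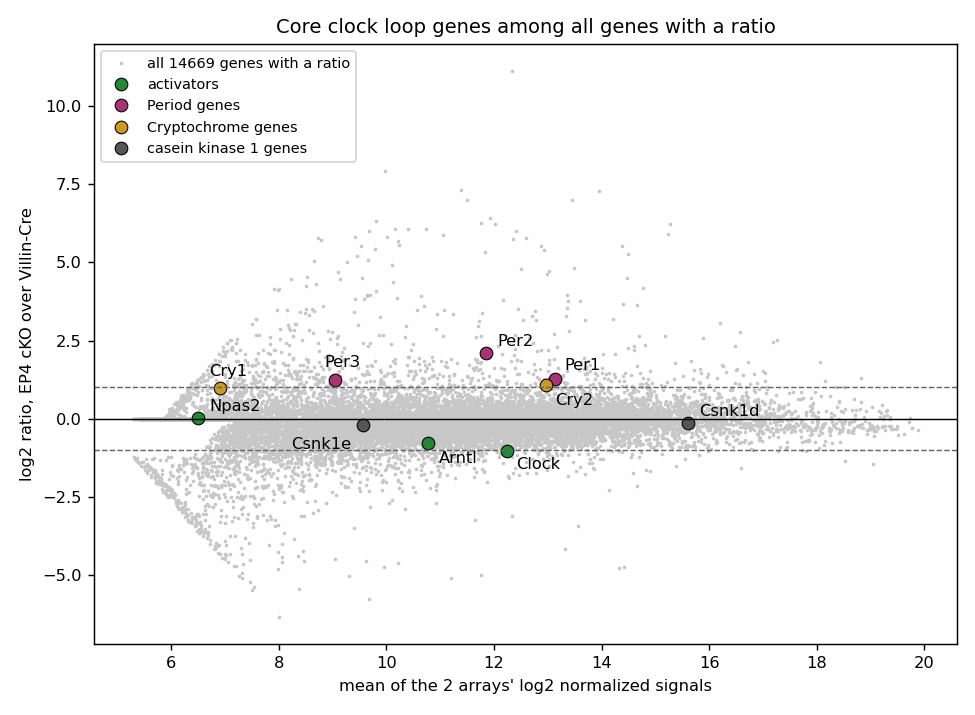
Log2 ratio (EP4 cKO over Villin-Cre) against the mean log2 normalized signal for 14669 genes (grey), with the 10 core clock loop genes coloured by role and dashed lines at 2-fold. Per2 (2.09), Per1 (1.26), Per3 (1.24) and Cry2 (1.08) lie above the upper 2-fold line, Clock (-1.03) lies at the lower one, and the kinases lie near 0, while the slanted edges on the left are bounds of dim probes.

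The loop acts through sites that some clock genes carry in their promoters. Promoter windows of RefSeq (GRCm38.p6, from 250 bases before to 50 after each annotated start) were found for 8 of the 10 genes, in 15 windows, some of which overlap, and not for Per2 and Csnk1d. Motifs were searched on both strands. The E-box CACGTG, bound by CLOCK and BMAL1, was in windows of Per1 and Cry1 (2 of 8 genes), and in those of 8.09% of all 27025 genes in the table. The D-box, searched as TTATGTAA or TTACGTAA and bound by DBP and its relatives, was in that of Per3 (1 of 8, and 1.23% of all genes). The core of the ROR and REV-ERB element, searched as TAGGTCA or TGGGTCA, was in that of Arntl (1 of 8, and 7.35% of all genes).

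The 4 windows are shown, 5′ to 3′ along the gene, because each holds an E-box, D-box or ROR element core, with the motif in capitals. Binding at these sites was not tested. The E-box of Per1 (chr11:69098699-69098998, plus strand) begins 166 bases before the start and that of Cry1 (chr10:85185005-85185304, minus strand) 60 before it. The D-boxes of Per3 (chr4:151044616-151044915, minus strand), both TTATGTAA, begin 205 and 158 bases before the start. The element core of Arntl (chr7:113207261-113207560, plus strand), TAGGTCA, begins at base 31 of the transcribed part.
Per1: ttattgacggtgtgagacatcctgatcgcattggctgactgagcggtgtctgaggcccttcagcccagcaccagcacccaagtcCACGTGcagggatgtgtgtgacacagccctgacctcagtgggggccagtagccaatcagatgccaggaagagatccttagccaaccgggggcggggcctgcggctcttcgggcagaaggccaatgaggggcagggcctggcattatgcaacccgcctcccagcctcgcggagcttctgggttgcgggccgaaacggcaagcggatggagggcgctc
Cry1: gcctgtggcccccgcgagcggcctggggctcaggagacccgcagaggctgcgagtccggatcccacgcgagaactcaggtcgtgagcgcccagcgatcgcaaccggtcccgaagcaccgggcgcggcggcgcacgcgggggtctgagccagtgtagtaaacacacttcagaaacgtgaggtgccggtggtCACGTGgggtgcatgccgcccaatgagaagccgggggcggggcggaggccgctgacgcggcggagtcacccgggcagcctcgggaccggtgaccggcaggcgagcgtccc
Per3: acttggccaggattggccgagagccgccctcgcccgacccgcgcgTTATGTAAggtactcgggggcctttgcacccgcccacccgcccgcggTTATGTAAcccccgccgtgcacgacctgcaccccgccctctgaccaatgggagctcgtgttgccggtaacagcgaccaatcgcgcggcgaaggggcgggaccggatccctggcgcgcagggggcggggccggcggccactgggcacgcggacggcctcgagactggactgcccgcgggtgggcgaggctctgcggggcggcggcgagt
Arntl: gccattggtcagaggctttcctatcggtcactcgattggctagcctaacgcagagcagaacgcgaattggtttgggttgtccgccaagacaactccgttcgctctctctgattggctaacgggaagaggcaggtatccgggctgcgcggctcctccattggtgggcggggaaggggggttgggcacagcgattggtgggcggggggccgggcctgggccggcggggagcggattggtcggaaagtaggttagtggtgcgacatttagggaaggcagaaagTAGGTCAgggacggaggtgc

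Of the genes with these windows, Per1 (log2 ratio 1.26), Per3 (1.24) and Cry1 (at least 0.98) were higher and Arntl (-0.78) was lower on the EP4 cKO array, while Cry2 (1.08) was higher with neither E-box nor D-box in its window and Clock (-1.03) lower with no ROR element core in its windows. The full cAMP response element, TGACGTCA, was in none of the 15 windows (2.03% of all genes), and its core TGACG, which lies within it, was in those of Per1, Cry1, Cry2 and Csnk1e (4 of 8 genes, and 23% of all genes). A match, or the lack of one, describes the words searched in these windows, and a link to the ratios was not tested. None of the windows of Clock and Npas2 held any of the motifs searched.

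**Figure D4:**
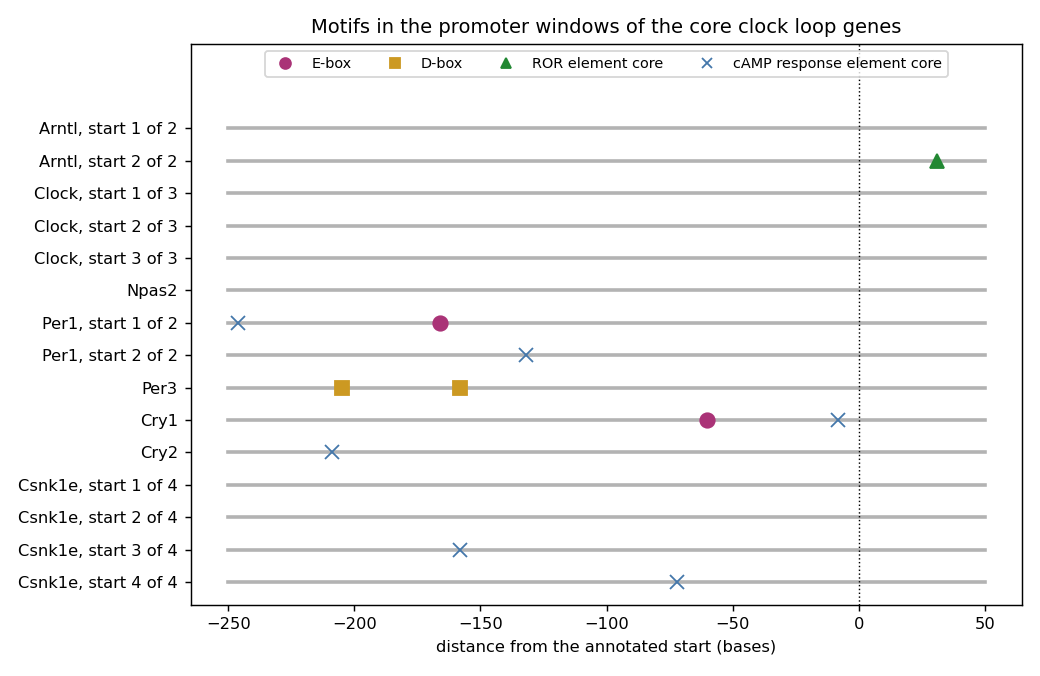
Positions of the motifs found in the 15 promoter windows of 8 core clock loop genes, in bases from the annotated start (dotted line), with 1 row per start. E-boxes lie in Per1 and Cry1, 2 D-boxes in Per3 and the ROR element core in Arntl, whereas cores of the cAMP response element are spread over 4 genes, and the crosses of Csnk1e mark 1 site in overlapping windows.

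The rest of the clock was taken as a list of 31 genes, of which 29 had a ratio. Of these, 5 were more than 2-fold higher on the EP4 cKO array, 3 were more than 2-fold lower and 21 lay within 2-fold, with a median log2 ratio of 0.13, beside the same shares of all genes, 4.86% higher and 7.87% lower. Scaling to the E1A control spots gave 16 higher and 2 lower, and normexp with quantile normalization gave 4 and 1. The 5 higher genes were Dbp, Tef, Usp2, Nr1d2 and Ciart. Dbp, the PAR-domain activator of D-box genes, had 12594 in Villin-Cre and 64346 in EP4 cKO (5.11-fold, log2 ratio 2.35), and 8947 and 41655 by its other probe. Tef, a relative of Dbp, had 17984 and 51907 (log2 ratio 1.53, with 1.51 by a second probe). Usp2, a deubiquitinase that cycles with the clock in many tissues, had 1645 and 6179 (log2 ratio 1.91, with 2.96 by its dimmer probe), and Nr1d2, the gene of REV-ERBβ, had 2365 and 4780 (log2 ratio 1.02, with 0.90 by its other probe), and lay within 2-fold after normexp with quantile normalization (0.93) and as the mean of its probes (0.96). Ciart, an inhibitor of CLOCK and BMAL1, was not well above background on the Villin-Cre array (72.0) and had 925 on the EP4 cKO array, at least 7.38-fold higher (log2 ratio of at least 2.88) with the trimmed mean, and its dimmer probe gave no fold above 1. The log2 ratio of Ciart was 1.999 after normexp with quantile normalization and 1.44 as the mean of its probes.

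The 3 lower genes were Bhlhe41, Hlf and Rora. Bhlhe41 encodes the repressor DEC2 and went from 1750 to 14.3, which was not well above background, so it was at least 30.2-fold lower on the EP4 cKO array (log2 ratio -4.92) with the trimmed mean. Hlf, the PAR-domain relative of Dbp and Tef, went from 239 to 11.6 (not well above background, at least 4.13-fold lower), and Rora, the gene of the activating receptor RORα, from 323 to 118 (log2 ratio -1.45). The other probes of Bhlhe41 and Rora were near background in both genotypes. After normexp with quantile normalization the log2 ratio was -2.52 for Bhlhe41, -0.86 for Hlf and -0.50 for Rora, and with scaling to the E1A control spots it was -3.88, -1.002 and -0.41, so that the calls of Hlf (in the first) and Rora (in both) ended. Of the PAR-domain family, Dbp and Tef were thus higher and Hlf was on the lower side. Of the remaining genes with the highest signals, Nono had a log2 ratio of -0.44, Csnk2b of -0.78 and Fbxw11 of -0.06. Nr1d1, the gene of REV-ERBα, was added after its values were seen, with 2019 and 2579 (log2 ratio 0.35). Fbxl21 was near background on both arrays, and no probe was matched to Rorb.

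Whole colon mixes cell types, and fewer cells of a type cannot be told apart from less RNA per cell. Of 11 epithelial markers, all were well above background on both arrays, 1 (Krt20, log2 ratio 1.80) was more than 2-fold higher and none lower, with a summed signal of 2011628 in Villin-Cre and 2540742 in EP4 cKO. All 5 fibroblast markers with a ratio, of 6, were more than 2-fold lower on the EP4 cKO array, where Col1a1, Col3a1 and Lum were not well above background, and their summed signal went from 12911 to 292. Of 7 smooth muscle markers, 6 had a ratio, of which 1 (Cnn1, log2 ratio -2.73) was lower and none was called higher. The log2 ratio of Des, from 30.7 (not well above background) to 108, had been set to 0, and Myh11 had no ratio. The sum went from 32908 to 47366. Of 8 neuronal and glial markers, 2 had a ratio, Uchl1 at -1.43 and Elavl4 at -0.82, with a sum of 3216 and 1456. Of the leukocyte markers, 1 of 8 with a ratio (Itgax, log2 ratio 1.73) was higher and none lower, and the sum went from 64782 to 83443. Endothelial markers had 2 of 4 genes with a ratio, both within 2-fold (sum 1045 and 1067), and Adipoq and Plin1, the adipocyte markers, were near background on both arrays. The part of these cell types in the ratios of the clock genes was not tested.

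**Figure D5:**
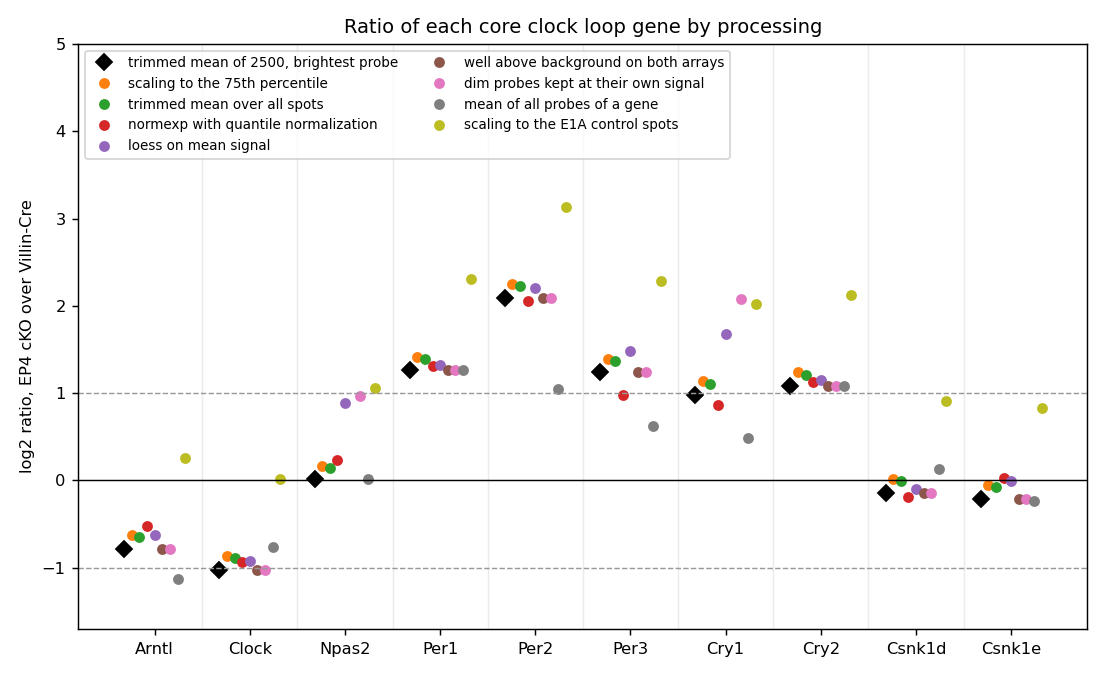
Log2 ratio (EP4 cKO over Villin-Cre) of each core clock loop gene under each way of processing, with diamonds for the values reported above and dashed lines at 2-fold. Per1, Per2 and Cry2 stay above the upper line in every setting, and Per3 falls to 0.62 as the mean of its probes. In that setting Per2 lies at 1.05 with its dimmer probe set to 0 (-0.53 by its own signals). Per1 and Cry2 have 1 probe each, so that setting cannot move them. Arntl and Clock stay below 0 except with scaling to the E1A control spots, which raises every gene.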

How the data were processed

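RNA of whole colon was measured on 2 Agilent arrays, 1 per genotype, grouped by the genotype in the labels. The authors deposited scanner intensities, namely the processed signal of Feature Extraction (12.0.3.1 in the file headers, 11.5.1.1 in the submitters' processing notes), background subtracted and detrended but not scaled between arrays, with flags, spot errors and other per-spot values. Deposited intensities were scaled here to a trimmed mean of 2500 without 2% of the probes at each end (Villin-Cre signals were multiplied by 3.45, EP4 cKO signals by 2.68). Control spots were dropped, as were 195 spots that the scanner software had called outliers, and spots of a probe were averaged.

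Probes were named by RefSeq accession, without version, through a table of GRCm38.p6; 32989 of 56593 probes matched, giving 22909 genes. A gene is its probe with the highest mean log2 signal, which is called its brightest. Where a bound gave no fold above 1, the log2 ratio was set to 0. The error of a ratio combines the errors of both spots. Arrays give no depth, and their number limits the precision.

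The members, lists and motifs were chosen with earlier results of these data known. All members are named with every probe; of the other clock genes, those past 2-fold and the 5 with the highest signals are named. Alternatives were scaling to the 75th percentile, a trimmed mean over all spots, normexp (offset 50, on median signals, since mean signals were not used here) with quantile normalization, loess (span 0.3), keeping dim probes at their own signals, keeping none but probes well above background on the 2 arrays, the mean of all probes, and thresholds of 1.5-fold and 3-fold. Scaling to the E1A control spots was added after seeing the data. The identity between paralogous proteins was planned and not analysed here. The steps were tested on simulated data. Loess used statsmodels 0.14.6 in Python 3.11.15 and normexp used limma 3.58.1 in R 4.3.3, with tables handled in pandas 2.3.3 and numpy 2.4.6 and plots drawn in matplotlib 3.10.9.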

Additional observations from a re-analysis of the deposited data

How the results depend on the processing

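The number of core clock loop genes more than 2-fold higher on the EP4 cKO array was 4 and stayed within 1.5 times of that in every setting except a threshold of 3-fold, which left 1 (Per2). Per3 fell under 2-fold after normexp with quantile normalization and as the mean of its probes (0.62). Npas2, a bound of 0.01, passed 2-fold with the E1A control spots (1.06) and was 0.89 after loess. Cry1, a bound of 0.98, passed 2-fold with scaling to the 75th percentile (1.13), a trimmed mean over all spots (1.11), loess (1.68), its own signals (2.08) and the E1A control spots (2.02), and was 0.49 as the mean of its probes. The number lower was 1 (Clock) and became 0 with scaling to the 75th percentile, a trimmed mean over all spots, normexp with quantile normalization, loess, scaling to the E1A control spots or a threshold of 3-fold, and 2 with a threshold of 1.5-fold. With the mean of all probes it was again 1, but the gene was Arntl (-1.13) and Clock lay within 2-fold (-0.77). The median log2 ratio of the 10 genes was 0.50, and 1.02 both after loess and without bounds for dim probes, where Npas2 and Cry1 are no longer held at a bound. Of the other clock genes, 5 were higher, 3 with a threshold of 3-fold and 16 with the E1A control spots; 3 were lower, 1 after normexp with quantile normalization, 1 when both arrays had to be well above background (Rora) and 6 with a threshold of 1.5-fold.

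Scaling to the 75th percentile, the trimmed mean over all spots and normexp with quantile normalization each brought the median of all genes to 0, the value at which genes without a fold were set, so that its shift of 0.10 is a cap; Per1 went from 1.26 to 1.42, 1.39 and 1.31. Loess raised the median by 0.14, and scaling to the E1A control spots by 0.97. Under the latter the medians were 1.54 for the core genes and 1.17 for the others, and the log2 ratio of Clock became 0.019 and that of Arntl 0.26, so both changed sign. No paired analysis was possible because each genotype had 1 array, and for the same reason no array could be left out. Signal over background limits Npas2, Cry1, Ciart, Hlf and Bhlhe41, whose ratios are bounds.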
